A study of Mus musculus with 12 samples.

Results

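Serpins are a family of proteins that share one fold, and most of them inhibit proteases. An inhibitory serpin offers the protease an exposed loop as bait; once the loop is cut, the serpin snaps into a new shape and traps the protease. Antithrombin acts this way outside cells, in coagulation. The serpins of group B stay largely inside cells, where they protect against elastases, cathepsins and granzymes. A few members inhibit nothing, among them the collagen chaperone encoded by Serpinh1 and pigment epithelium-derived factor, encoded by Serpinf1. In early mouse development some are made in extraembryonic tissues.

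The serpin genes were taken as all genes on a mouse 60-mer Agilent array whose name begins with Serpin, a letter from a to i and a number, and which had a probe well above background on at least 2 of the 12 arrays. The array carried 54 such genes on 73 probes. 30 genes, with 35 probes, met the rule, and 29 of them could be tested among 20048 genes in all. The gene that could not be tested was Serpinb12, which no RNA held well above background on both of its arrays, so no ratio of it is given. 24 genes were well above background on at most 1 array and are not described further. They were Serpina11, Serpina12, Serpina1b, Serpina1e, Serpina1f, Serpina3a, Serpina3b, Serpina3f, Serpina3g, Serpina3k, Serpina3n, Serpina4-ps1, Serpina5, Serpina6, Serpinb10, Serpinb11, Serpinb13, Serpinb2, Serpinb3a, Serpinb3b, Serpinb3d, Serpinb7, Serpinb9b and Serpini2. The brightest probe stands for a gene, and other probes of it that met the rule are given beside it. Further probes of Serpinb1b, Serpinb8, Serpinb6a, Serpina10, Serpinb3c and Serpinb12 were well above background on 0 arrays and are not given.

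The cells were mouse embryonic stem (ES) cells grown on gelatin with leukemia inhibitory factor. The 7 RNAs were from Dicer1-null cells labelled as overexpressing Dnmt3a and Dnmt3b (the Dnmt3a,3b line), Dicer1-null cells labelled as overexpressing Dnmt1 (the Dnmt1 line), Dicer1-null cells, and wild-type cells, the first 3 kinds each in 2 clones, 27G5 and 27H10. Dicer cuts microRNA precursors, and the Dnmt proteins are DNA methyltransferases. Dicer-null RNA was set against wild-type RNA, and each Dnmt line against the Dicer-null cells of its own clone, always on 2 arrays with swapped dyes. All Dnmt line arrays of 27G5 lay on a single slide and all those of 27H10 on another. Differences between the clones in the Dnmt comparisons therefore cannot be told apart from differences between slides. Which part of Dicer1 is deleted, and how the Dnmt genes were expressed, is not given in the sources used here. Both Dnmt lines carry the Dicer1 deletion of their clone. Each clone gave 1 ratio per comparison, the mean of its 2 arrays, so n = 2 clones throughout, and the wild-type RNA was 1 RNA whose own spread does not enter. The Dicer-null RNA of a clone lies on top of the first ratio and at the bottom of the other 2, so an error in it would move them in opposite directions. In bulk RNA, fewer cells of a type and less RNA per cell cannot be told apart.

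Between 61.6% and 68.6% of non-control spots were well above background per channel. Dicer1 itself had a log2 ratio of -0.53 in Dicer-null over wild-type cells (limma, adjusted p = 0.00400), -0.63 in the Dnmt1 line and -0.77 in the Dnmt3a,3b line over Dicer-null cells. Dnmt1 stood at 0.27 in the Dnmt1 line over Dicer-null cells (adjusted p = 0.111). In the Dnmt3a,3b line Dnmt3a stood at -1.03 (adjusted p = 0.0824) and Dnmt3b fell by 1.04 (adjusted p = 0.0340), so none of these genes was called higher in the line named for it, and where the probes lie relative to a transgene is not given. Among 8 ES cell markers 7 were higher in Dicer-null than in wild-type cells and none was lower, with Klf4 at 0.82. That is a share of 87.5%, where 40.4% of all genes were called, 20.4% of them all as higher. All p-values below are limma's, adjusted by Benjamini-Hochberg over the 20048 genes, and a gene is called higher or lower where that value is under 0.05.

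Group B held 14 of the 29 tested serpins and 11 of the 20 that were called in any comparison, and many of its members lie in a cluster on chromosome 13. The probes of Serpinb9d, Serpinb9e and Serpinb9g are shown first because these near copies moved together, so what each probe can tell apart matters. Each is given 5′ to 3′ with its position in build mm7 (NCBI35), and capitals mark runs of at least 8 bases found in one of the other 2 probes.
Serpinb9d (chr13:32568495-32568554, plus strand): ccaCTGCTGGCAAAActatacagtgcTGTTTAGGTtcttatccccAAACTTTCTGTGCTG
Serpinb9e (chr13:32625534-32625593, plus strand): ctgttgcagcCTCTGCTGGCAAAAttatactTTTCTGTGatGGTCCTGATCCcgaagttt
Serpinb9g (chr13:32912682-32912741, plus strand): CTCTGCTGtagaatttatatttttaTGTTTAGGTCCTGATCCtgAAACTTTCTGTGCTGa
Aligned in pairs, the Serpinb9d and Serpinb9e probes matched at 38 of 51 bases, Serpinb9d and Serpinb9g at 44 of 59, and Serpinb9e and Serpinb9g at 38 of 50. The Serpinb9g probe shown is its dimmer one, and the array's annotation lists it also for a transcript that RefSeq names Serpinb9f. Signal at these probes may therefore hold RNA of more than 1 of these genes, and how much was not tested.

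The comparison of Dicer-null with wild-type cells asks what changes when microRNA processing is lost. Serpinc1 (antithrombin, the main inhibitor of thrombin), the 3 Serpinb1 genes and Serpinb6c were at least 2 times higher in Dicer-null cells, while Serpinh1, Serpine2 and Serpinb8 were at least 2 times lower. In all 8 of the 29 tested serpins were higher and 6 were lower, and 8 of these 14 differed by at least 2 times. Of all genes tested 40.4% were called in this comparison (20.4% higher and 20.1% lower), so the serpins' share of 48.3% lies near that background. The median log2 ratio was 0.09 over the serpins and 0.01 over all genes, and the median size regardless of sign was 0.56 against 0.27. Without the 27G5 ratio 4 serpins were higher, and with the RNAs that the ratios share entered in the model 5 were.

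Serpinc1 had log2 ratios of 3.44 and 4.07 on the 27G5 arrays and 3.41 and 3.87 on the 27H10 arrays in Dicer-null over wild-type cells. Every array put it at least 10 times higher, with a mean of 3.70 ± 0.08 (adjusted p = 0.000244). Its signal averaged 10.82 and 10.49 on the log2 scale in the 2 Dicer-null clones and 6.88 in wild-type cells. The second Serpinc1 probe gave a smaller mean of 0.94 ± 0.16. The brighter probe lies farther along chromosome 1 (chr1:160964484-160964543 in mm7) than the second. Both probes put Serpinc1 higher on all arrays but differ in size.

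The Serpinb1 genes, mouse copies of the inhibitor of neutrophil elastase, were all higher in Dicer-null cells. Serpinb1a had log2 ratios of 2.98 and 3.15 on the 27G5 arrays and 2.54 and 2.70 on the 27H10 arrays, a mean of 2.84 ± 0.32 (adjusted p = 0.000163). Serpinb1c had 1.91 and 2.40 on the 27G5 arrays and 1.62 and 2.03 on the 27H10 arrays, a mean of 1.99 ± 0.23 (adjusted p = 0.000226). All 8 of these values lie above 1.6, with 27G5 the higher clone for both genes. Serpinb1b had 1.64 and 2.12 on the 27G5 arrays and 1.33 and 1.66 on the 27H10 arrays, a mean of 1.69 ± 0.27 (adjusted p = 0.000378). The dimmer Serpinb1c probe, which was not well above background on any wild-type array, was at least 1.99-fold higher. Serpinb6c, a copy of the gene for an intracellular inhibitor of cathepsin G, had 1.29 and 1.45 on the 27G5 arrays and 0.98 and 1.20 on the 27H10 arrays, a mean of 1.23 ± 0.20 (adjusted p = 0.00383), a call that is lost without the 27G5 ratio.

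**Figure D1:**
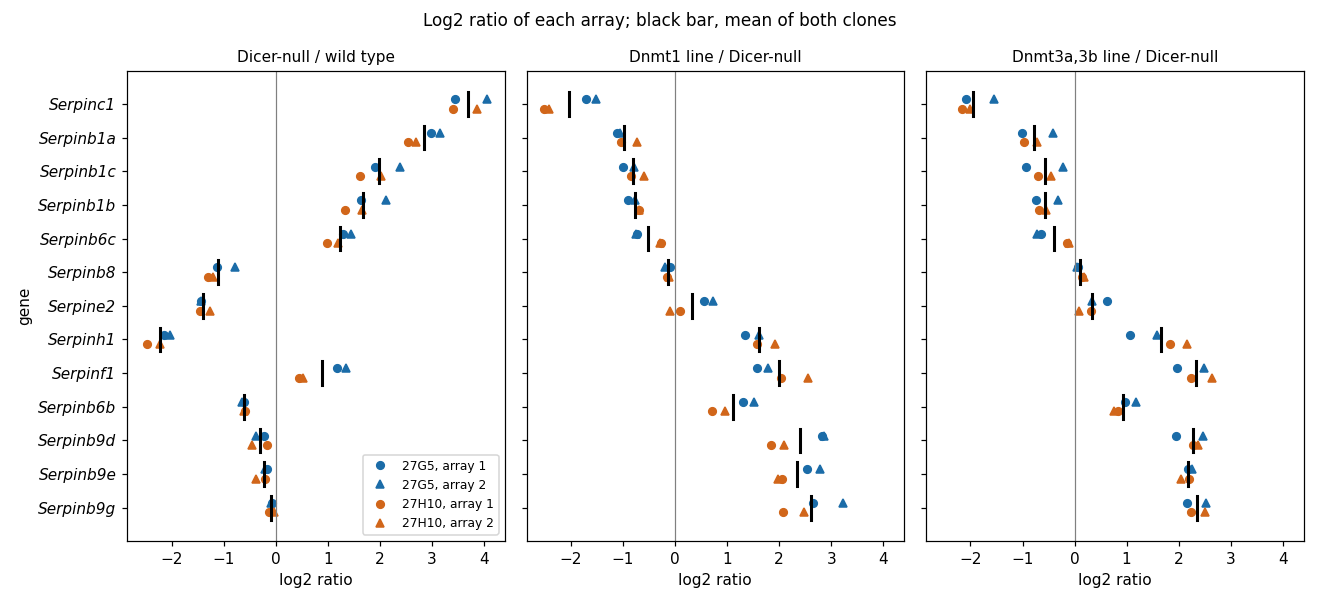
Log2 ratio of each array (x axis) for 13 serpins (y axis) called with at least a 2-fold difference in any comparison, in Dicer-null over wild-type cells, the Dnmt1 line over Dicer-null cells and the Dnmt3a,3b line over Dicer-null cells; circles and triangles are the 2 dye-swapped arrays of a clone and the black bar is the mean of both clones. Serpinc1 runs from 3.41 to 4.07 in the first panel and lies below 0 on every array of the other 2, while Serpinh1 lies below 0 on every array of the first panel and above 1 on every array of the others.

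3 more serpins were higher in Dicer-null cells by less than 2 times. Serpinf1 differed between the clones, at 1.18 and 1.35 on the 27G5 arrays and 0.46 and 0.53 on the 27H10 arrays, with a mean of 0.88 ± 0.55 (adjusted p = 0.0252), and its dimmer probe gave 0.44 ± 0.29. Serping1, the inhibitor of the first component of complement, was at 0.70 ± 0.01, and Serpina9, a serpin of germinal-centre B cells, at 0.31 ± 0.06. Serpina1d, a copy of the gene for the elastase inhibitor of plasma, was at 0.56 ± 0.03 with an adjusted p of 0.0504, just past the threshold. Serpinb5 (maspin) was above 1 in 27G5, at 1.05 and 1.35, and below 0.5 in 27H10, at 0.18 and 0.40, and was not called (adjusted p = 0.0594).

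Among the serpins lower in Dicer-null cells, Serpinh1, whose product helps procollagen fold in the endoplasmic reticulum, moved most. Its log2 ratios were -2.14 and -2.04 on the 27G5 arrays and -2.47 and -2.22 on the 27H10 arrays, a mean of -2.22 ± 0.18 (adjusted p = 0.000577). Serpine2, which encodes protease nexin, a cell-surface inhibitor of thrombin and urokinase, had -1.44 and -1.44 on the 27G5 arrays and -1.46 and -1.27 on the 27H10 arrays, a mean of -1.41 ± 0.06 (adjusted p = 0.00184). Serpinb8, an intracellular inhibitor of furin, had -1.13 and -0.78 on the 27G5 arrays and -1.29 and -1.21 on the 27H10 arrays, a mean of -1.10 ± 0.21 (adjusted p = 0.000746). Here the Dicer-null RNA held Serpinb8 well above background on 2 of 4 arrays, and 27H10 on none. The size of its ratio thus rests on signal near the detection limit, and ran from -2.48 to -0.95 under other ways of processing. For Serpinh1, Serpine2 and Serpinb8 no array lies above -0.78. Serpinb6b fell by 0.61 ± 0.02 and Serpinb9, the inhibitor of granzyme B, by 0.61 ± 0.03. The dimmer Serpinb9 probe was not well above background on any Dicer-null array and was at least 1.49-fold lower.

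Genes of collagen folding and processing were read from a list of 14, of which 3 were higher and 4 lower in Dicer-null cells (median 0.08). That is a share of 50%, where 40.4% of all genes were called. Bmp1, which cleaves procollagen, fell by 2.73, Fkbp10 by 1.22 and Plod2 by 0.94, whereas Crtap was at 1.10. Of 14 fibroblast markers 9 were lower and 1 was higher, with Tagln, whose probe was saturated on 2 of 4 wild-type arrays, at -4.20, Col1a1 at -4.09, Col1a2 at -2.34 and Dcn at 2.02. The summed fibroblast marker signal ran from 25704 to 37761 in Dicer-null RNA and from 81737 to 90853 in wild-type RNA. Of 13 extraembryonic endoderm markers 8 were lower and none was higher, and their summed signal ran from 8090 to 10272 in Dicer-null RNA and from 17708 to 20579 in wild-type RNA. The share called was 71.4% of the fibroblast and 61.5% of the extraembryonic endoderm markers, beside the same 40.4% of all genes. These marker genes moved with Serpinh1 and Serpine2, and their part in those ratios was not tested.

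The proteases that serpins inhibit moved in both directions, 5 of 24 tested higher and 7 lower in Dicer-null cells, with 12 not called and 40.4% of all genes called. Prothrombin (F2), which gives rise to the main target of antithrombin, was at 1.73, while the membrane protease hepsin (Hpn) fell by 1.73, cathepsin L (Ctsl) by 1.14 and Masp1 of the complement lectin pathway by 0.94. The Ctsl probe was saturated on 2 of 4 wild-type arrays, where its signal is only a lower limit. Of 15 cofactors and clearance receptors 4 were higher and 5 lower. The proteoglycan Gpc1 fell by 2.13, the protein C receptor Procr by 1.71 and the endocytic receptor Lrp2 by 1.23. Inhibitors of other families were split as well, 5 of 24 higher and 5 lower, with the metalloproteinase inhibitor Timp2 at -2.73, cystatin B (Cstb) at 1.16 and Pzp, a broad protease trap related to macroglobulin, at 1.86.

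The Dnmt1 line was set against the Dicer-null cells of its own clone. Among Dicer1, Dnmt1, Dnmt3a and Dnmt3b, 3 were called lower there, the lowest at -1.34, and none was called higher. The ratios thus compare cell lines, and the part of the methyltransferase in them was not tested. Serpinb9g, Serpinb9d, Serpinb9e, Serpinf1, Serpinh1 and Serpinb6b were more than 2 times higher, and Serpinc1 more than 2 times lower. Of the 29 serpins 10 were higher and 6 lower, against 23% of all genes called (12% higher and 11% lower), a share of 55.2% for the serpins. The median size of the log2 ratio was 0.51 over the serpins and 0.20 over all genes. With the RNAs that the ratios share entered in the model the counts were 6 higher and 0 lower, and with only the ratios of this comparison they were also 6 and 0, so the lower calls depend on the model. Calls over all genes fell as well, from 4619 to 480 with the shared RNAs and to 253 with only the ratios of this comparison.

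The Dnmt3a,3b line gave like values, with 9 serpins higher and 5 lower, 7 of them by at least 2 times. Of all genes 21.2% were called (10.4% higher and 10.8% lower), a share of 48.3% for the serpins, and the median size was 0.51 over the serpins and 0.20 over all genes. Without the 27G5 ratio of this comparison 0 serpins and 4 of all 20048 genes were called, and without the 27H10 ratio 0 serpins and 0 genes, so a single ratio of this comparison hardly passed the threshold for any gene. The ratios of the clones alone were alike for several serpins, at 2.35 in 27G5 and 2.37 in 27H10 for Serpinb9g and 2.23 and 2.44 for Serpinf1. With the shared RNAs in the model 6 serpins were higher and 0 lower, and calls over all genes fell from 4254 to 384.

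Serpinf1, which encodes a secreted factor that restrains blood vessel growth, was higher in both lines and in Dicer-null cells. Its log2 ratios were 1.97 and 2.49 on the 27G5 arrays and 2.23 and 2.64 on the 27H10 arrays in the Dnmt3a,3b line, a mean of 2.33 ± 0.15 (adjusted p = 0.00451). The Dnmt1 line gave 1.57 and 1.79 on the 27G5 arrays and 2.03 and 2.56 on the 27H10 arrays, a mean of 1.99 ± 0.43 (adjusted p = 0.00553). Every array of both lines lies above 1.5, and the dimmer probe gave means of 1.74 ± 0.10 in the Dnmt3a,3b line and 1.45 ± 0.26 in the Dnmt1 line. Serpinf1 is the only serpin called higher in all 3 comparisons.

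Serpinh1 was higher in both lines than in Dicer-null cells, where it had been lower than in wild-type cells. Its log2 ratios were 1.07 and 1.58 on the 27G5 arrays and 1.84 and 2.15 on the 27H10 arrays in the Dnmt3a,3b line, a mean of 1.66 ± 0.47 (adjusted p = 0.00518). On the Dnmt1 line arrays the values were 1.34 and 1.61 on the 27G5 arrays and 1.57 and 1.92 on the 27H10 arrays, a mean of 1.61 ± 0.19 (adjusted p = 0.00520). Added to the same clone's ratio of Dicer-null over wild-type cells, these put it at -0.77 and -0.35 in the Dnmt3a,3b line and -0.61 and -0.60 in the Dnmt1 line over wild-type cells, a comparison no array made directly. Of the 14 genes of collagen folding and processing 3 were higher and 1 lower in each line, a share of 28.6%. Of all genes 21.2% were called in the Dnmt3a,3b line and 23% in the Dnmt1 line. Bmp1 was at 2.11 in the Dnmt3a,3b line and 1.68 in the Dnmt1 line, Tram2 at 0.40 and 0.83, and P4ha1, a collagen prolyl hydroxylase subunit, at 0.74 and 0.83 in the same order, while Fkbp10 fell by 0.61 and 0.89. Of the 13 extraembryonic endoderm markers 5 were higher and 1 lower in the Dnmt3a,3b line and 4 higher and 2 lower in the Dnmt1 line, with Col4a2 at 1.33 and 1.27. Their summed signal ran from 11942 to 20414 in the Dnmt3a,3b line and from 12337 to 16146 in the Dnmt1 line, above its range in Dicer-null RNA. Of the 14 fibroblast markers 2 were higher and 2 lower in the Dnmt3a,3b line and 3 higher and 3 lower in the Dnmt1 line. The shares called were 28.6% and 42.9% of the fibroblast markers in the same order, and 46.2% of the endoderm markers in each line. The part of both marker lists in the Serpinh1 ratios was not tested here either.

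Serpinc1 and the Serpinb1 genes were lower in both lines than in Dicer-null cells. Serpinc1 had log2 ratios of -2.08 and -1.56 on the 27G5 arrays and -2.16 and -2.02 on the 27H10 arrays in the Dnmt3a,3b line, a mean of -1.95 ± 0.19 (adjusted p = 0.00509). Its Dnmt1 line values were -1.71 and -1.52 on the 27G5 arrays and -2.53 and -2.43 on the 27H10 arrays, a mean of -2.05 ± 0.61 (adjusted p = 0.00432), with 27H10 the lower clone. The second probe gave -0.70 ± 0.06 in the Dnmt3a,3b line and -0.75 ± 0.05 in the Dnmt1 line. Summed over the steps, Serpinc1 remained 1.94 and 1.55 above wild-type cells in the Dnmt3a,3b line and 2.14 and 1.17 above them in the Dnmt1 line, on the log2 scale.

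Serpinb1a had log2 ratios of -1.01 and -0.41 on the 27G5 arrays and -0.97 and -0.71 on the 27H10 arrays in the Dnmt3a,3b line, a mean of -0.78 ± 0.10 (adjusted p = 0.0138). The Dnmt1 line gave -1.12 and -1.05 on the 27G5 arrays and -1.03 and -0.72 on the 27H10 arrays, a mean of -0.98 ± 0.15 (adjusted p = 0.00747). Serpinb1c averaged -0.57 ± 0.00 in the Dnmt3a,3b line and -0.81 ± 0.13 in the Dnmt1 line, and Serpinb1b -0.57 ± 0.06 and -0.77 ± 0.10 in the same order. All 3 genes were below 0 on every array of both lines. Serpinb6c lay below 0 on every array too, at -0.40 ± 0.40 and -0.51 ± 0.33, and was not called (adjusted p = 0.161 and 0.0917).

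**Figure D2:**
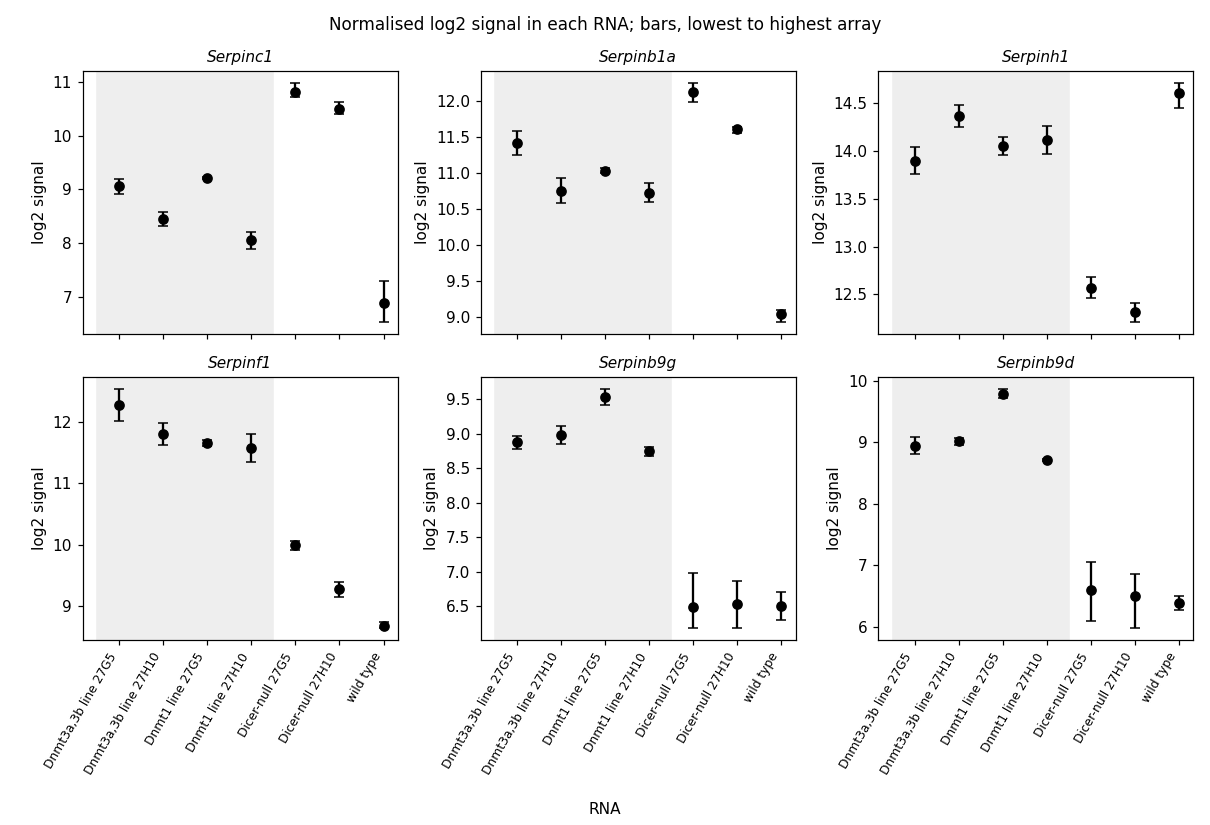
Normalised log2 signal (y axis, scaled to each gene) of 6 serpins in the 7 RNAs (x axis), with the Dnmt lines on grey; points are means over 2 arrays for each Dnmt line, 6 for each Dicer-null RNA and 4 for wild type, and bars run from the lowest to the highest array. Serpinf1, Serpinb9g and Serpinb9d are highest in the 4 Dnmt line RNAs, Serpinc1 and Serpinb1a in the 2 Dicer-null RNAs, and Serpinh1 lowest in the Dicer-null RNAs.

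The Serpinb9 genes code for serpins related to the granzyme B inhibitor, and several of these mouse copies are known from the placenta. Serpinb9g had log2 ratios of 2.17 and 2.53 on the 27G5 arrays and 2.24 and 2.50 on the 27H10 arrays in the Dnmt3a,3b line, a mean of 2.36 ± 0.01 (adjusted p = 0.00248). On the Dnmt1 line arrays the values were 2.66 and 3.23 on the 27G5 arrays and 2.07 and 2.48 on the 27H10 arrays, a mean of 2.61 ± 0.47 (adjusted p = 0.00177), and its dimmer probe gave 1.50 ± 0.06 in the Dnmt3a,3b line and 1.64 ± 0.46 in the Dnmt1 line. The brighter probe was well above background in the Dnmt RNA on all 8 arrays, but in the Dicer-null RNA on 3 of 4 arrays against the Dnmt3a,3b line and 1 of 4 against the Dnmt1 line, so the low side is close to the detection limit.

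Serpinb9d had 1.95 and 2.47 on the 27G5 arrays and 2.27 and 2.38 on the 27H10 arrays in the Dnmt3a,3b line, a mean of 2.27 ± 0.08 (adjusted p = 0.00391). Its Dnmt1 line values were 2.81 and 2.86 on the 27G5 arrays and 1.84 and 2.09 on the 27H10 arrays, a mean of 2.40 ± 0.62 (adjusted p = 0.00303). Serpinb9e had 2.19 and 2.26 on the 27G5 arrays and 2.19 and 2.04 on the 27H10 arrays in the Dnmt3a,3b line, a mean of 2.17 ± 0.08 (adjusted p = 0.00289). The Dnmt1 line gave 2.53 and 2.79 on the 27G5 arrays and 2.05 and 1.97 on the 27H10 arrays, a mean of 2.33 ± 0.46 (adjusted p = 0.00214). For all 3 genes both Dnmt1 arrays of 27G5 lie above both of 27H10, and no array of either line lies below 1.8. None of the 3 was called in Dicer-null over wild-type cells, where the means were -0.23 for Serpinb9e and -0.08 for Serpinb9g, and Serpinb9d, not well above background on any Dicer-null array, was at least 1.14-fold lower.

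Other members of the cluster had smaller ratios in the Dnmt lines. Serpinb6b had 0.97 and 1.18 on the 27G5 arrays and 0.83 and 0.75 on the 27H10 arrays in the Dnmt3a,3b line, a mean of 0.93 ± 0.20 (adjusted p = 0.0137). On the Dnmt1 line arrays the values were 1.30 and 1.52 on the 27G5 arrays and 0.70 and 0.95 on the 27H10 arrays, a mean of 1.12 ± 0.41 (adjusted p = 0.00843). Serpinb9 was at 0.51 ± 0.12 in the Dnmt3a,3b line and 0.49 ± 0.06 in the Dnmt1 line, but its dimmer probe gave only 0.14 ± 0.02 in the Dnmt3a,3b line and was at least 1.09-fold higher in the Dnmt1 line. Serpinb9c was at 0.53 ± 0.07 in the Dnmt3a,3b line, and at least 1.37-fold higher in the Dnmt1 line, since it was not well above background on any Dicer-null array there. It was not well above background on any array of Dicer-null against wild-type cells.

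**Figure D3:**
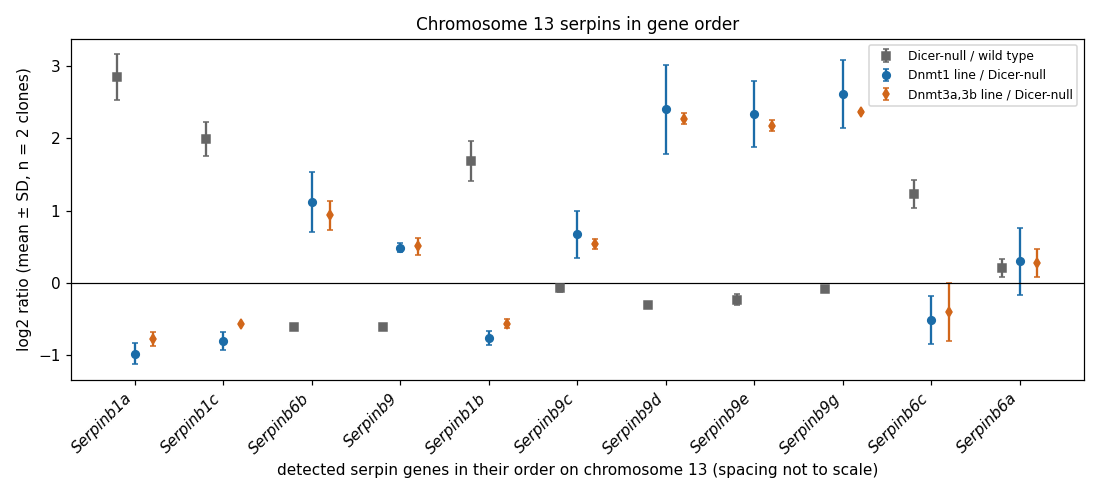
Mean log2 ratio with its SD over 2 clones (y axis) of the 11 detected serpins of the chromosome 13 cluster in their order along the chromosome (x axis, spacing not to scale), for the 3 comparisons. Genes that rose in the Dnmt lines and genes that fell are interspersed: Serpinb1b lies between Serpinb9 and Serpinb9c and fell, while both of its neighbours rose.

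Along chromosome 13 the order of the detected genes was Serpinb1a, Serpinb1c, Serpinb6b, Serpinb9, Serpinb1b, Serpinb9c, Serpinb9d, Serpinb9e, Serpinb9g, Serpinb6c and Serpinb6a. In each Dnmt line 6 of these 11 were higher, 3 lower and 2 not called, and in Dicer-null over wild-type cells 4 were higher, 2 lower and 5 not called. Of all genes 21.2% were called in the Dnmt3a,3b line, 23% in the Dnmt1 line and 40.4% in Dicer-null over wild-type cells. All 5 detected Serpinb9 genes were called higher in both lines and all 3 Serpinb1 genes lower, although Serpinb1b lies between Serpinb9 and Serpinb9c. Serpinb9c was well above background on 0 of 4 wild-type arrays and on 1 of 6 and 0 of 6 arrays of Dicer-null 27G5 and 27H10. It thus met the detection rule only through the Dnmt lines, so its place among the higher genes is partly set by that rule. Serpinb9b did not meet the rule and is left out. Serpinb6a was not called in any comparison, with means of 0.21, 0.29 and 0.27.

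The 250 bases before the annotated starts of the 3 Serpinb9 genes with the highest ratios are shown because they too are near copies. They are from RefSeq on GRCm38.p6, on the plus strand of chromosome 13, and capitals mark bases that differ from, or have no partner in, at least one of the other 2.
Serpinb9d (chr13:33192705-33192954, plus strand): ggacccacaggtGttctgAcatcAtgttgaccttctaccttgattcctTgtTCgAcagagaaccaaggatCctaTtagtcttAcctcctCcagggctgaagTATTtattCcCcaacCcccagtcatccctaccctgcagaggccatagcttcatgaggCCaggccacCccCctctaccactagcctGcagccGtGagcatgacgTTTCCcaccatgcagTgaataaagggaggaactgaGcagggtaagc
Serpinb9e (chr13:33249358-33249607, plus strand): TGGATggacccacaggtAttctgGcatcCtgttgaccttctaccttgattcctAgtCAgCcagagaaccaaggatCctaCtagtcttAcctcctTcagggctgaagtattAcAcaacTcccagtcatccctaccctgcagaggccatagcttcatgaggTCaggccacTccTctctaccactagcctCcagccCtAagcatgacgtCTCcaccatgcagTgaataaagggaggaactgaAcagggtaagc
Serpinb9g (chr13:33484540-33484789, plus strand): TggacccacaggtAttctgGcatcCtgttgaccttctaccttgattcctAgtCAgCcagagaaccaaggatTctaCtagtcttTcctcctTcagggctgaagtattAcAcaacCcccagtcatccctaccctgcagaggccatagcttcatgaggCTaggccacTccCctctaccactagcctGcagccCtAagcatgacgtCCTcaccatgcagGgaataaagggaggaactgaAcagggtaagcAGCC
Serpinb9e and Serpinb9g matched at 236 of 246 aligned bases, Serpinb9d and Serpinb9e at 225 of 245, and Serpinb9d and Serpinb9g at 224 of 245. A Serpinb9c window matched them at between 68.1% and 71.8% of aligned bases. RefSeq gave more than 1 window for Serpinb9c, and only 1 was aligned. The Serpinb9c ratios were smaller, but its Dicer-null signal was near the detection limit, so their size is uncertain. Likeness of the windows was not tested against the ratios. The Serpinb9f window matched Serpinb9e at 233 of 235. The windows hold 3, 1 and 1 CG dinucleotides for Serpinb9d, Serpinb9e and Serpinb9g, where the median over 32851 such windows of the genome is 6. None holds TATAAA on either strand, which 12.4% of all windows do.

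CG dinucleotides are the main target of the Dnmt proteins, and most serpin promoters held few. RefSeq gave windows for 24 of the 30 detected serpins, taking the richest window of a gene with several. 17 of the 24 held at most 3, as did 37.8% of all windows, and 5 held more than 6. Serpine2 held the most, 34, and Serpinh1 held 11, while Serpinc1 and Serpinf1 held 2 each. The number of CG dinucleotides was not tested against the ratios.

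Most markers of trophoblast were, like Serpinb9d, Serpinb9e and Serpinb9g, higher in both Dnmt lines than in Dicer-null cells. Of 11 tested, 8 were higher in the Dnmt3a,3b line (72.7%) and 7 in the Dnmt1 line (63.6%), and none was lower. Of all genes 21.2% and 23% were called in the same order. In Dicer-null over wild-type cells 1 trophoblast marker was higher and 7 were lower, beside 40.4% of all genes called. Serpinb9d, Serpinb9e and Serpinb9g were not called there. Krt7 was at 2.72 in the Dnmt3a,3b line and 2.81 in the Dnmt1 line, Krt18, saturated on 4 of 4 Dnmt3a,3b arrays and 3 of 4 Dnmt1 arrays, at no less than 1.95 and 2.13, and Tfap2c at 1.62 and 1.75 in the same order. The summed marker signal ran from 105745 to 216454 in the Dnmt3a,3b line, from 107997 to 274722 in the Dnmt1 line, from 32294 to 65170 in Dicer-null cells and from 92631 to 212945 in wild-type cells. At least 9 of the 11 were well above background in each RNA, so none of the RNAs lacked them. The sums in wild-type RNA overlap those in the Dnmt lines. They vary widely between arrays of the same RNA and hold the saturated Krt18 probe, so no conclusion is drawn from the overlap. Serpinb9d, Serpinb9e and Serpinb9g had lower signal in wild-type RNA than in the Dnmt lines. The part of these markers in the serpin ratios was not tested. Leukocyte and liver markers, which bear on the Serpinb1 genes and Serpinc1, showed 1 higher and 1 lower of 6 and 2 higher and 2 lower of 5 in Dicer-null over wild-type cells. These are shares of 33.3% and 80%, beside 40.4% of all genes. The summed leukocyte signal ran from 2238 to 2847 in Dicer-null RNA and from 1337 to 1362 in wild-type RNA, with Cd68 at 1.25, and the liver sum from 1742 to 2332 and from 1451 to 1629 in the same order. In the Dnmt lines, where the Serpinb1 genes and Serpinc1 were lower than in Dicer-null cells, the leukocyte sum ran from 2368 to 3354 in the Dnmt3a,3b line and from 2902 to 3496 in the Dnmt1 line, and the liver sum from 1907 to 2829 and from 1546 to 2234. Of the 6 leukocyte markers 1 was called higher in the Dnmt3a,3b line and 2 in the Dnmt1 line, with none lower. None of the 5 liver markers was called in either line. The part of both marker lists in the serpin ratios was not tested.

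Of 24 proteases 6 were higher and 1 lower in each Dnmt line, a share of 29.2% called, beside 21.2% of all genes in the Dnmt3a,3b line and 23% in the Dnmt1 line. Among the lysosomal cathepsins Ctss was at 1.29 in the Dnmt3a,3b line and 1.07 in the Dnmt1 line, Ctsl, saturated on 1 Dnmt3a,3b array, at 0.80 and 0.85 and Ctsb at 0.57 and 0.67, while Masp2 fell by 0.65 and 0.69. Of 15 cofactors and receptors 6 were higher in each line, 0 lower in the Dnmt3a,3b line and 1 in the Dnmt1 line. Procr was at 1.67 in the Dnmt3a,3b line and 1.64 in the Dnmt1 line, tissue factor (F3) at 1.09 and 0.94, Gpc1 at 0.88 and 0.80, and thrombomodulin (Thbd) at 0.60 and 0.78. Of 24 inhibitors of other families 4 were higher in the Dnmt3a,3b line with none lower, and 5 higher and 1 lower in the Dnmt1 line, with Timp2 at 0.42 and 0.55 and Itih5 at 0.64 and 0.65.

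The remaining serpins had mean ratios under 2 times in size in the Dnmt lines. Serpina3m, a copy of the gene for antichymotrypsin, was lower in both lines, at -0.96 ± 0.30 in the Dnmt3a,3b line and -0.88 ± 0.05 in the Dnmt1 line, and was at 0.02 in Dicer-null over wild-type cells. Serpina7, the thyroxine carrier of plasma, was called higher in the Dnmt1 line at 0.44 ± 0.29, and was at 0.20 ± 0.09 in the Dnmt3a,3b line (adjusted p = 0.259). The Dnmt1 line call was lost in 7 of 18 alternatives, and the Dicer-null RNA there was well above background on 2 of 4 arrays. In Dicer-null over wild-type cells Serpina7 was not called, and was well above background on 1 Dicer-null array and no wild-type array. Serpina9 was at least 1.23-fold lower in the Dnmt1 line, where it was not well above background on any Dnmt1 array, a call lost in 7 of 19 alternatives, that with clone as a block among them (adjusted p up to 0.217), and stood at -0.27 ± 0.03 in the Dnmt3a,3b line (adjusted p = 0.0506). Serpine2 and Serpinb8, lower in Dicer-null than in wild-type cells, were not called in either line: Serpine2 stood at 0.34 ± 0.20 in the Dnmt3a,3b line and 0.32 ± 0.45 in the Dnmt1 line, and Serpinb8 at 0.11 ± 0.07 in the Dnmt3a,3b line and at least 1.05-fold lower in the Dnmt1 line, where no Dnmt1 array held it well above background.

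9 tested serpins were called in no comparison, Serpinb5 and Serpinb6a among them. In the order Dicer-null over wild-type cells, Dnmt1 line and Dnmt3a,3b line over Dicer-null cells, Serpina10, the inhibitor that works with protein Z, had means of 0.01, 0.00 and -0.04. Serpina1d had 0.56, 0.06 and -0.15, and Serpinb3c had 0.06, -0.12 and -0.13. These values lie within 0.6 of 0. Serpina3c was at 0.09 in the first comparison and, not well above background on any Dnmt array, at least 1.06-fold lower in the Dnmt1 line and at least 1.16-fold lower in the Dnmt3a,3b line. Serpind1 (heparin cofactor) was well above background on 2 Dnmt1 arrays, both of 27G5, and on no array of the other comparisons. Averaged over both clones it was at least 1.08-fold higher than in Dicer-null cells. The rise lay in 27G5 alone, with 27H10 at -0.02, and was not called (limma, adjusted p = 0.312). Serpinf2, the inhibitor of plasmin, had 0.00, -0.01 and -0.05, and Serpini1 (neuroserpin) had 0.14, 0.11 and -0.32. Serpinb5 had -0.67 in the Dnmt3a,3b line and -0.65 in the Dnmt1 line over Dicer-null cells, and Serping1, called in Dicer-null over wild-type cells, had 0.00 and 0.04 in the same order.

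The 2 Dnmt lines were also set against each other through their shared Dicer-null RNA. No serpin differed between the Dnmt3a,3b line and the Dnmt1 line at an adjusted p under 0.05, nor did any of the 20048 genes (0% called), and at an unadjusted p under 0.05 limma found 0 of 29 serpins and 189 of all genes. The differences over the serpins ran from -0.43 for Serpini1 to 0.34 for Serpinf1 on the log2 scale, with standard errors between 0.10 and 0.35. A p above the threshold does not show that the lines were alike.

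The 5 tested genes whose 6 ratios lay nearest to those of Serpinc1, by Euclidean distance on the log2 scale, were Txlnb at 1.29, Wdfy4 at 1.31, Dmgdh at 1.34, Ttn at 1.73 and Wdr95 at 1.76. Each was higher in Dicer-null than in wild-type cells and lower in both Dnmt lines than in Dicer-null cells in both clones, a likeness over 6 ratios that share RNAs. The genes were picked by these same ratios, so the shared directions follow from the choice.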

How the data were processed

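Gene expression was measured on 12 2-colour Agilent arrays of mouse ES cell RNA. The deposited spot intensity values and the log10 ratios of Cy5 over Cy3 were made by the authors with Agilent Feature Extraction, per the file headers, an earlier version for the slide with wild-type RNA than for the 2 others. A deposited table holds log2 ratios; set against each scanner ratio, all columns ran as first-named over reference RNA. Mean and local background intensity were corrected here by normexp (offset 50), normalised by loess within arrays and turned to first-named over reference, using limma 3.58.1 in R 4.3.3. The 2 dye-swapped arrays of a clone were averaged as technical replicates, and 1 linear model with 3 comparisons over 6 ratios (3 residual degrees of freedom, eBayes) was fitted across 20048 genes. A gene was tested if its brightest probe was measured on every array and, for at least 1 RNA of a pair, stood well above background on both arrays. Genes are named through RefSeq accessions on GRCm38.p6 where these matched. A fold called "at least" sets the brighter group against the lowest signal well above background on each dim array. It is averaged over the arrays, some of which may be dim in the brighter group too, and it is not a test. For Serpinb9d in Dicer-null over wild-type cells, and for Serpinb8, Serpina3c and Serpind1 in the Dnmt lines, it stands beside ratios that were not called. The arrays' number limits the precision.

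Per the labels, a clone name is shared by the RNAs compared, which pairs the ratios by clone. Deviations from the comparison means correlated at 0.36 between the 2 Dnmt comparisons, where a clone also shares its slide. They correlated at -0.06 and -0.13 where the shared Dicer-null RNA enters with opposite sign. Every detected serpin is named but 1, which is counted but not reported here, with each array's value for those called with at least a 2-fold difference; from each gene list the text takes up to 4 members with the largest t. The serpins, lists and markers were chosen with earlier results of these data known. The fit was tested on simulated data.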

Additional observations from a re-analysis of the deposited data

Results flagged for a closer look

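For 6 serpin ratios the arrays of one clone all lay above 0 and those of the other all below, and the difference between clones was not tested. In the Dnmt lines it cannot be told apart from a difference between slides. In the Dnmt1 line over Dicer-null cells Serpina1d differed by 0.77 on the log2 scale (27G5 minus 27H10, 0.44 against -0.33), Serpinb6a by -0.66 (-0.04 against 0.63) and Serping1 by -0.66 (-0.29 against 0.37). In the Dnmt3a,3b line Serpind1 differed by 0.25, on arrays where neither RNA held it well above background. In Dicer-null over wild-type cells Serpina3m differed by 0.16 and Serpina10 by -0.090. None of the 6 mean ratios was called by limma.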

How the results depend on the processing

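Across 19 alternatives no serpin value that was called, in the reported fit or the alternative, changed sign. Of 1632 comparisons of a single serpin under an alternative, 1493 kept their side of the threshold, 90 lost a call and 49 gained one. Leaving out 1 clone's ratio of a comparison, with the lone sample assumed to vary like the other groups, gave 4 to 7 serpins higher and 4 lower in Dicer-null over wild-type cells, 11 higher and 5 lower in the Dnmt1 line and 0 higher and 0 lower in the Dnmt3a,3b line. The model with shared RNAs gave 5 higher in Dicer-null over wild-type cells, 6 higher and 0 lower in the Dnmt1 line and 6 higher and 0 lower in the Dnmt3a,3b line. Over all genes that model called 1944, 480 and 384 in the same order, against 8108, 4619 and 4254 in the reported fit. Only the ratios of the comparison gave 6 higher and 0 lower in the Dnmt1 line, and a stricter filter, under which 22 serpins remained, gave 6 higher in both Dnmt lines. With dye orientation as a replicate block 8 were lower in the Dnmt3a,3b line. With clone as a replicate block the counts were 9 higher and 6 lower, 10 and 5, and 9 and 5 in the 3 comparisons, and Serpina9 in the Dnmt1 line lost its call. Serpinb9d, Serpinb9e, Serpinf1, Serpinh1 and Serpinb9g in the Dnmt1 line, and Serpinc1, the Serpinb1 genes, Serpinh1, Serpine2, Serpinb8 and Serpinb9 in Dicer-null over wild-type cells, kept their calls in every alternative that tested them. The cause of these shifts was not tested. Probes near background, such as those of Serpinb9c and Serpina9, give only bounds, and 2 clones per comparison limit every p.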
